A study of Mus musculus with 16 samples.

Results

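The interferon-stimulated genes described here are 39 genes, chosen by their symbols, of the 51179 gene identifiers measured by RNA sequencing in peripheral blood mononuclear cells (PBMCs) of C57BL/6N mice. They fall into 5 roles. The signalling genes are Irf7, Irf9, Stat2 and Usp18. The Ifit, Oas and Mx genes are Ifit1, Ifit2, Ifit3, Ifit3b, Oas1a, Oas2, Oas3, Oasl1, Oasl2, Mx1 and Mx2. The interferon-gamma GTPases are Ifi47, Tgtp1, Tgtp2, Igtp, Irgm1, Gbp2, Gbp3 and Gbp7. The nucleic acid sensors are Ifih1, Dhx58, Eif2ak2, Zbp1 and Ifi204, and the other effectors are Rsad2, Isg15, Cmpk2, Ifi44, Bst2, Ifi27l2a, Xaf1, Rtp4, Herc6, Parp14 and Trim30a. The study modelled heart failure with preserved ejection fraction (HFpEF), in which filling of the heart is impaired while the share of blood it ejects per beat is kept. In the HFD + L-NAME group (n = 5 libraries) mice ate a diet high in fat (HFD) for 15 weeks while dosed with L-NAME. L-NAME blocks nitric oxide synthase. In the HFD + L-NAME + NO2-OA group (n = 6), called the NO2-OA group below, mice on the same diet and L-NAME were also given NO2-OA, nitro-oleic acid, during the final 4 weeks. The chow group (n = 5) ate regular chow without either, and the labels give no age or sex and name no vehicle treatment of any group.

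Interferons are secreted proteins that bind cell surface receptors and, through Janus kinases, activate STAT transcription factors. Type I interferons drive a complex that holds STAT2 and IRF9 onto interferon-stimulated response elements (ISRE), and interferon-gamma acts through gamma-activated sites (GAS). In blood the genes that follow serve as a readout of virus infection and of sterile interferon signalling: Ifit, Oas and Mx proteins act on foreign RNA and virus replication, whereas the interferon-gamma GTPases act on vacuoles that hold bacteria or parasites.

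Promoter sequences of 29 members were found in RefSeq, and those of 11 members are shown: members whose levels are described below, and GTPases with and without these motifs. Ifit2 has 2 annotated starts. Each run is the 130 bases before the annotated start, read 5′ to 3′ on the strand of the gene, and capitals mark the ISRE core GAAANNGAAA on either strand (TTTCNNTTTC on the other) and the GAS core TTCNNNGAA, which reads alike on both strands.
Rsad2: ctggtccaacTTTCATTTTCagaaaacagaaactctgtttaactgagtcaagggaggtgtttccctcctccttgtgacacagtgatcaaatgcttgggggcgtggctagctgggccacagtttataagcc
Isg15: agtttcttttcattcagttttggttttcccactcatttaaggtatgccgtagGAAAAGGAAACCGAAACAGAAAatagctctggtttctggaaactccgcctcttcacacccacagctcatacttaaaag
Oas3: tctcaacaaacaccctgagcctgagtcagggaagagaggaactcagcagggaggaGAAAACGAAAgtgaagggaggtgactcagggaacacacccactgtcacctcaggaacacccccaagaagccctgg
Ifit1: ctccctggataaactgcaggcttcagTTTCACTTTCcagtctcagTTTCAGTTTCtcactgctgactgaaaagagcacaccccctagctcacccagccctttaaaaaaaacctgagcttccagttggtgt
Igtp: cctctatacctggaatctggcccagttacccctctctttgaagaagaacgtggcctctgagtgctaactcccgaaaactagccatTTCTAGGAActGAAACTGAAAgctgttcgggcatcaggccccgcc
Tgtp1: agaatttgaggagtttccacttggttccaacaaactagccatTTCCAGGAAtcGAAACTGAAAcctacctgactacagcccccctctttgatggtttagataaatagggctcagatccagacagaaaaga
Tgtp2: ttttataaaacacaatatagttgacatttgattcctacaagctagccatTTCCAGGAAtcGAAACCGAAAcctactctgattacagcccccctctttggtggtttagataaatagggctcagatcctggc
Gbp7: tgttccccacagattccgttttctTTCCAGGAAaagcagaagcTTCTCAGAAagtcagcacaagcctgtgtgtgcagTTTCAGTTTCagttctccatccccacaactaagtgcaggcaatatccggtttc
Irgm1: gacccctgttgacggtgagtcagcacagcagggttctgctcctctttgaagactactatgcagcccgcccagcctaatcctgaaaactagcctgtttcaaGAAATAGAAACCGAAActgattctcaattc
Ifit2, upstream start: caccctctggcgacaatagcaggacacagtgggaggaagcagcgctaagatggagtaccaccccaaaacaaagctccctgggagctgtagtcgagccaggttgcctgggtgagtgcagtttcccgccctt
Ifit2, downstream start: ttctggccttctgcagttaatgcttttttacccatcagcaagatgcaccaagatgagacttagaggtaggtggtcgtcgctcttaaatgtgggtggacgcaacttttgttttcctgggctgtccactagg
Ifi47: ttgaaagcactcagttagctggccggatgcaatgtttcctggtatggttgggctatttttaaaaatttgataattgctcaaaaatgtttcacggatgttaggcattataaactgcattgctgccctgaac
On GRCm38.p6 the Rsad2 run is chr12:26456453-26456582 on the minus strand, the Isg15 run chr4:156200819-156200948 on the minus strand, and the Oas3 run chr5:120777660-120777789 on the minus strand. The Ifit1 run is chr19:34640759-34640888 on the plus strand and the Igtp run chr11:58199426-58199555 on the plus strand. The Tgtp1 run is chr11:48992247-48992376 and the Tgtp2 run chr11:49064213-49064342, both on the minus strand. The Gbp7 run is chr3:142530206-142530335 on the plus strand and the Irgm1 run chr11:48871421-48871550 on the minus strand. The Ifit2 runs are chr19:34550564-34550693 and chr19:34550958-34551087 and the Ifi47 run chr11:49076457-49076586, all on the plus strand. These 3 runs hold neither core, and the GAS core counted for Ifit2 lies farther from its upstream start. In Isg15 the ISRE cores overlapped each other, from base 78 to base 57 before the start. In Igtp, Tgtp1 and Tgtp2 a GAS core was followed by an ISRE core after a gap of a few bases, from base 45 to 25, 88 to 68 and 81 to 61 before the start. Rsad2, Isg15, Oas3 and Ifit1 held the ISRE core without a GAS core in the 250 bases before their starts. Over those 250 bases, 17 of the 29 members held an ISRE core, 8 a GAS core and 6 both, against 3.46%, 8.13% and 0.4% of all 27025 genes in the table. Of the 8 GTPases, 7 held an ISRE core, 4 a GAS core and 4 both. Of the 8 Ifit, Oas and Mx genes found, 5 held an ISRE core, 2 a GAS core and 1 both. A match describes these letters and is no evidence of binding.

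Expression is given as TPM, a measure of transcript abundance that divides reads by gene length and scales each library to a total of 1000000, so values of different genes can be compared per length. Read numbers recovered from the spacing of low TPM values came to between 4590773 and 25170640 per library. Protein-coding genes took 15.1% to 22.1% of TPM in chow 3, HFD + L-NAME 5 and NO2-OA 2 and 39.1% to 56.4% in the other libraries, although their share of recovered reads was 85.6% to 90.4% throughout. Genes of resident peritoneal macrophages summed to between 352 and 773 TPM in HFD + L-NAME 1, HFD + L-NAME 5, chow 1 and chow 2, and to at most 21.6 TPM elsewhere. Library numbers fell into a lower run of 11 libraries and a higher run made of these 4 and NO2-OA 2. The labels do not state that each library is a different mouse, so p-values measure the spread between libraries. In such mixed cells, fewer cells of a type and less RNA per cell cannot be told apart. Marker genes of the labelled PBMCs were present: all 6 B cell, all 7 T cell, all 6 natural killer cell and all 10 monocyte markers were above 0 in every library. Neutrophil markers were present too. Of these 9 genes 8 were above 0 in every library, and they summed to between 37.6 TPM (chow 1) and 2600 TPM (chow 4).

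The highest mean over the 16 libraries was that of Ifi27l2a, a small interferon-induced protein, at 93.0 ± 37.8 TPM (SD, n = 16). Rsad2, which encodes the antiviral enzyme viperin, followed at 90.1 ± 94.4 TPM, Igtp, an immunity-related GTPase, at 83.6 ± 57.4 TPM, and Isg15, a ubiquitin-like modifier, at 47.2 ± 55.0 TPM. These 4 neighbours in the order did not differ beyond their spread. Next came Trim30a at 31.2 ± 12.8 TPM and Ifit2 at 23.5 ± 16.1 TPM. The other members lay between 1.14 TPM (Ifit3b) and 19.3 TPM (Ifi47 and Parp14), apart from Ifi44 at 0.105 ± 0.0991 TPM. Ifi44 had 82 reads in all 16 libraries together and was the one member short of the expression filter (1 TPM or more in 5 or more libraries), so 38 of 39 members were among the 16365 genes tested. The 34 members other than Rsad2, Isg15, Igtp, Ifit2 and Ifi44 differed between their highest and lowest library by 3.13-fold (Ifih1) to 34.7-fold (Usp18, which had 3 reads in HFD + L-NAME 5). Rsad2 spanned 111-fold, Isg15 44.7-fold, Ifit2 24.7-fold and Igtp 13.6-fold.

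Most of the members were low in the same libraries. For 36 of 39 members the lowest library was one of the 3 with little protein-coding TPM, and HFD + L-NAME 5 alone was the lowest for 25. The highest library was NO2-OA 5 for 11 members, NO2-OA 3 for 7 and chow 4 for 5, so no group held all the high values. The median SD of a member within groups was 0.593 on the log2(TPM + 1) scale against 0.582 for all tested genes. After median-of-ratios scaling, which sets the typical gene equal between libraries, it was 0.321 against 0.350. Rsad2 (SD 1.89) varied more within groups than 99.6% of tested genes, Isg15 (1.63) more than 99.0%, Ifit2 (1.28) more than 97% and Igtp (1.14) more than 95.7%. With that scaling these shares were 99.5%, 99%, 96% and 94.9%. Stat2 (SD 0.139) and Ifih1 (0.148) were then among the steadiest genes, with 4.6% and 5.8% of genes below them.

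**Figure D1:**
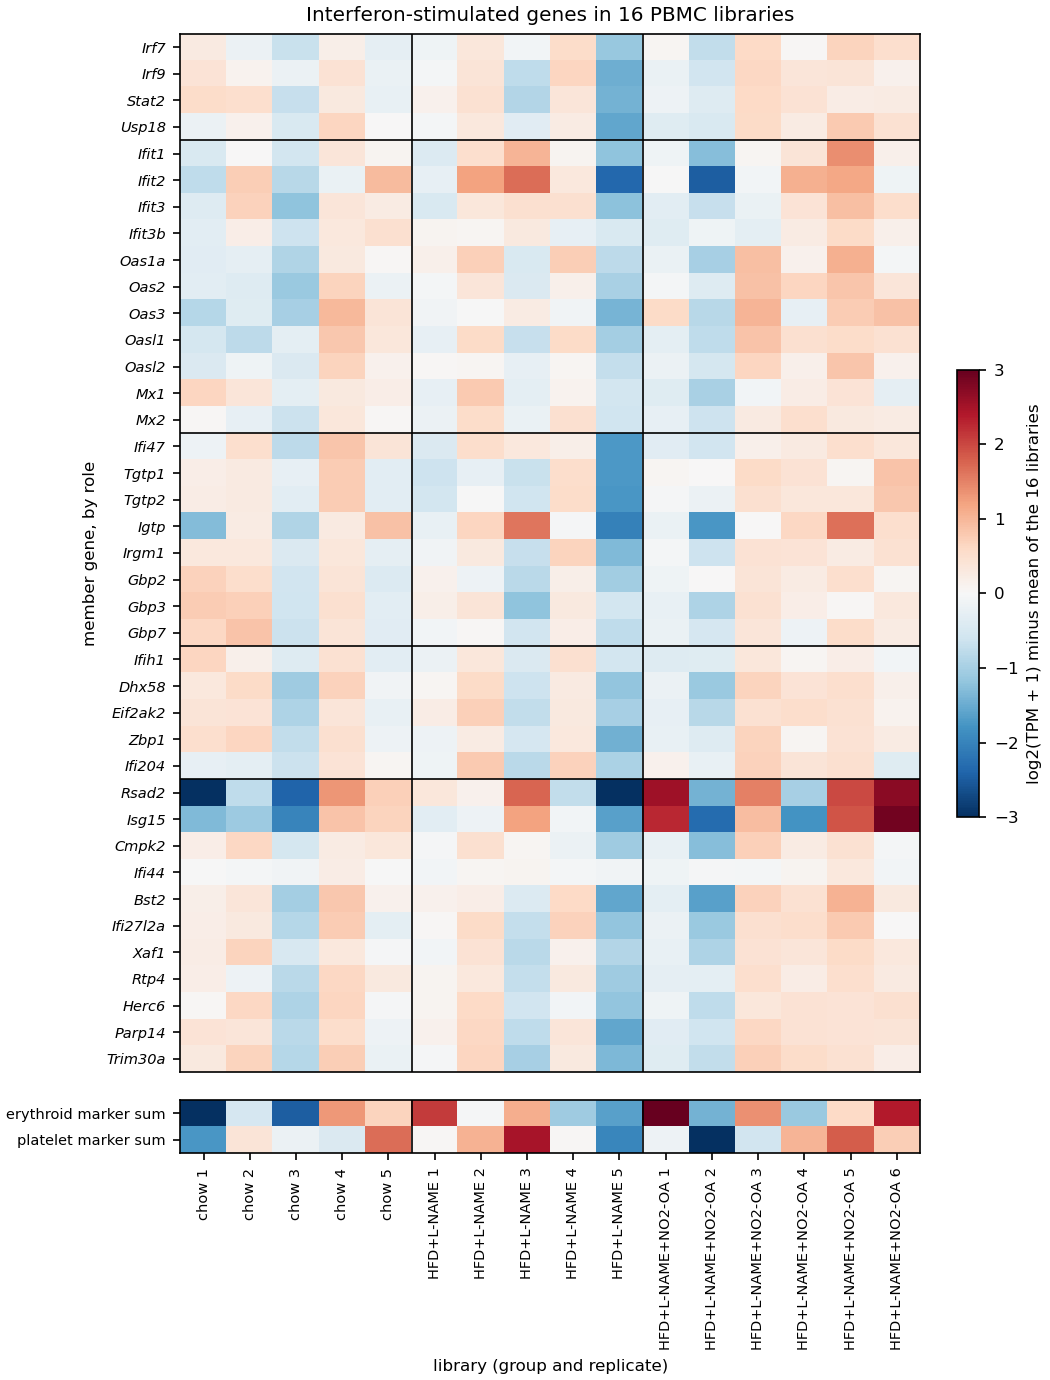
Colour shows log2(TPM + 1) of each of the 39 members (rows, by role) in each of 16 libraries (columns, by group) minus the mean of the member over the libraries, with the summed TPM of erythroid and platelet marker genes on the same scale below; colours stop at 3 above and below the mean. Rsad2 (2.7 to 301 TPM) and Isg15 (4.54 to 203 TPM) vary most and resemble the erythroid strip, Ifit2 and Igtp resemble the platelet strip, and HFD + L-NAME 5 is the lowest library for 25 of 39 members.

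The interferons themselves were close to undetectable. Of 18 type I interferon genes, 13, including Ifnb1, had no reads in any of the 16 libraries, which for a gene of 1 kb allows up to 3 reads, or 0.141 to 0.546 TPM depending on the library. Ifnz, named after its values were seen, was the most abundant of the others, with 69 reads in all and at most 1.91 TPM, in NO2-OA 2. Ifng, the sole type II interferon, was above 0 in every library, from 1.23 TPM (chow 2) to 5.50 TPM (chow 4), with log2 differences of -0.14, -0.07 and -0.22 in the 3 comparisons below. The receptor genes for types I and II were above these levels: Ifnar1 lay between 10.6 and 40.0 TPM, Ifnar2 between 5.27 and 21.2 TPM, Ifngr1 between 30.2 and 179 TPM and Ifngr2 between 7.15 and 33.0 TPM. The type III receptor gene Ifnlr1 lay between 0.149 and 2.59 TPM, in the range of Ifnz and Ifng. Of the 17 receptor and signalling genes outside the members, 0 passed the test in any comparison, beside 0.00611%, 0.00611% and 0% of all genes. The median log2 differences of the 17 were -0.34 (HFD + L-NAME against chow), 0.24 (the NO2-OA group against HFD + L-NAME) and -0.14 (the NO2-OA group against chow). Over all genes the medians were -0.29, 0.08 and -0.20. Markers of plasmacytoid dendritic cells, the cells known for type I interferon secretion, summed to between 26.3 and 94.2 TPM. That sum includes the member Bst2 (4.45 to 34.0 TPM) and Irf8 (10.1 to 46.4 TPM), which is also among those 17 genes. Of the 10 markers, 7 were above 0 in every library, and Cox6a2, Cd300c and Klk1 were not. Siglech lay between 0.0995 and 1.92 TPM and Ccr9 between 0.592 and 2.74 TPM.

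The signalling members overlapped between groups. Irf7, the transcription factor that amplifies type I interferon production, was at 15.5, 11.0, 7.64, 14.3 and 10.4 TPM in the chow libraries, at 11.5, 16.2, 11.9, 19.1 and 5.25 TPM in HFD + L-NAME, and between 7.23 and 20.6 TPM (median 15.7) in the NO2-OA group. The groups overlapped. Irf9, the DNA-binding part of the type I complex, averaged 17.4 ± 3.90, 15.0 ± 8.28 and 17.9 ± 5.34 TPM (SD, n = 5, 5 and 6), and Stat2, its partner, 14.5 ± 5.11, 12.0 ± 6.25 and 15.0 ± 3.90 TPM, always in the order chow, HFD + L-NAME, NO2-OA. Usp18, which removes Isg15 from proteins and dampens receptor signalling, averaged 2.53 ± 1.04, 2.02 ± 1.21 and 3.04 ± 1.31 TPM. The means of Irf9, Stat2 and Usp18 differed by less than the SD within each group.

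Among the Ifit, Oas and Mx members, Ifit2, an RNA-binding protein, was the highest. It stood at 10.2, 30.6, 9.53, 15.5 and 35.4 TPM in chow, at 14.8, 42.7, 59.5, 22.5 and 2.66 TPM in HFD + L-NAME, and between 2.41 and 41.0 TPM (median 17.2) in the NO2-OA group. The spread inside each group exceeded any difference between them. Oasl1 (7.12 ± 3.86, 6.85 ± 3.77 and 8.90 ± 3.61 TPM), Oas1a (5.23 ± 1.83, 7.08 ± 3.55 and 7.68 ± 4.33 TPM) and Ifit3 (5.44 ± 2.83, 5.34 ± 2.69 and 6.00 ± 2.86 TPM) also overlapped between groups. Oas2, which makes the messenger 2′-5′-oligoadenylate that activates RNase L, was at 3.68, 3.43, 1.67, 8.22 and 4.18 TPM in chow. It was at 4.59, 6.52, 3.29, 5.50 and 1.98 TPM in HFD + L-NAME, and between 3.48 and 9.66 TPM (median 7.28) in the NO2-OA group. Of the 6 NO2-OA libraries 4 were above the HFD + L-NAME median, and the groups overlapped. Oas3, a relative of Oas2, averaged 5.49 ± 3.94, 4.61 ± 1.91 and 7.92 ± 3.67 TPM. Mx1, a dynamin-like GTPase that blocks influenza virus in mice with an intact gene, was low, at 2.80 ± 0.853, 2.23 ± 1.30 and 1.90 ± 0.926 TPM. Ifit3 and Ifit3b are close copies, so reads that match both may be divided or lost between them.

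Of the interferon-gamma GTPases, Tgtp1 and Tgtp2, members of the immunity-related family whose name refers to T cells, stood lowest in HFD + L-NAME. Tgtp1 was at 7.70, 8.10, 5.39, 11.8 and 5.10 TPM in chow, at 3.90, 5.37, 3.78, 9.86 and 1.29 TPM in HFD + L-NAME, and at 6.90, 6.62, 10.3, 9.19, 6.81 and 12.6 TPM in the NO2-OA group. All 6 NO2-OA libraries were above 4 of the 5 HFD + L-NAME libraries, and HFD + L-NAME 4 lay inside their range. Tgtp2 was at 12.7, 13.1, 8.41, 19.0 and 8.50 TPM in chow, at 7.00, 10.6, 6.76, 16.2 and 2.49 TPM in HFD + L-NAME, and between 9.40 and 19.6 TPM (median 13.9) in the NO2-OA group. Tgtp1 and Tgtp2 are near-identical copies, so they do not count as separate evidence and the split of reads between them is uncertain. Igtp was at 26.3, 79.2, 34.7, 80.6 and 122 TPM in chow, at 56.4, 104, 204, 64.9 and 15.5 TPM in HFD + L-NAME, and between 19.0 and 210 TPM (median 81.1) in the NO2-OA group. The groups overlapped throughout. Igtp shares 162 of its 2022 exon bases with Irgm2 in GENCODE M21, and Irgm2 averaged 7.45 TPM. Ifi47, another immunity-related GTPase, averaged 21.4 ± 8.79, 17.3 ± 8.54 and 19.2 ± 5.37 TPM. The guanylate-binding proteins Gbp3 (11.7 ± 4.96, 8.76 ± 3.85 and 9.57 ± 3.12 TPM), Gbp2 (9.22 ± 3.73, 6.42 ± 2.62 and 9.16 ± 1.70 TPM) and Gbp7 (5.70 ± 2.70, 3.82 ± 1.30 and 4.88 ± 1.59 TPM) had their lowest mean in HFD + L-NAME, with overlapping groups. Chow 1 and chow 2, which carry macrophage genes, held the highest 2 values of Gbp2, Gbp3 and Gbp7. HFD + L-NAME 1 and HFD + L-NAME 5 carry them too. They were at 8.66 and 3.29 TPM for Gbp2, 10.5 and 6.04 TPM for Gbp3, and 4.18 and 2.26 TPM for Gbp7. Protein-coding genes took only 15.1% of TPM in HFD + L-NAME 5. The part of macrophage RNA in these values was not tested.

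The sensors overlapped between groups as well. Ifi204, a DNA-binding protein, averaged 7.41 ± 2.33, 8.59 ± 5.08 and 9.60 ± 2.94 TPM, and Zbp1, a sensor of Z-form nucleic acids, 9.05 ± 3.52, 6.56 ± 3.09 and 8.71 ± 2.68 TPM. Eif2ak2, the RNA-activated kinase PKR, averaged 6.78 ± 2.61, 6.49 ± 3.45 and 7.14 ± 2.57 TPM. The RNA sensors Dhx58 (5.88 ± 2.73, 4.78 ± 2.54 and 5.77 ± 2.44 TPM) and Ifih1 (3.09 ± 1.27, 2.62 ± 1.16 and 2.60 ± 0.731 TPM) were lower.

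Among the other effectors, Bst2, which tethers virus to the cell surface, averaged 18.5 ± 7.59, 15.4 ± 7.45 and 19.9 ± 10.3 TPM and Parp14, an ADP-ribosyltransferase, 19.6 ± 6.74, 17.1 ± 9.27 and 20.7 ± 6.54 TPM. Ifi27l2a averaged 92.6 ± 37.3, 87.5 ± 44.5 and 97.9 ± 39.3 TPM and Trim30a, a ubiquitin ligase, 33.6 ± 13.8, 26.4 ± 14.4 and 33.3 ± 11.9 TPM. Rsad2 and Isg15 spread far more widely. Rsad2 was at 2.70, 26.5, 7.77, 114 and 74.7 TPM in chow, at 57.7, 49.9, 155, 26.8 and 4.61 TPM in HFD + L-NAME, and at 267, 16.2, 132, 22.1, 183 and 301 TPM in the NO2-OA group. The NO2-OA group thus held the 3 highest values and also values of 16.2 and 22.1 TPM, lower than most of HFD + L-NAME. Isg15 was at 9.90, 11.9, 5.91, 48.3 and 42.3 TPM in chow, at 20.9, 23.6, 62.3, 24.8 and 7.78 TPM in HFD + L-NAME, and at 131, 4.54, 51.1, 6.89, 100 and 203 TPM in the NO2-OA group. Its lowest and highest values in the study both lay in the NO2-OA group. Rsad2 rested on 107 to 24912 recovered reads per library and Isg15, a short gene, on 21 to 1624.

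**Figure D2:**
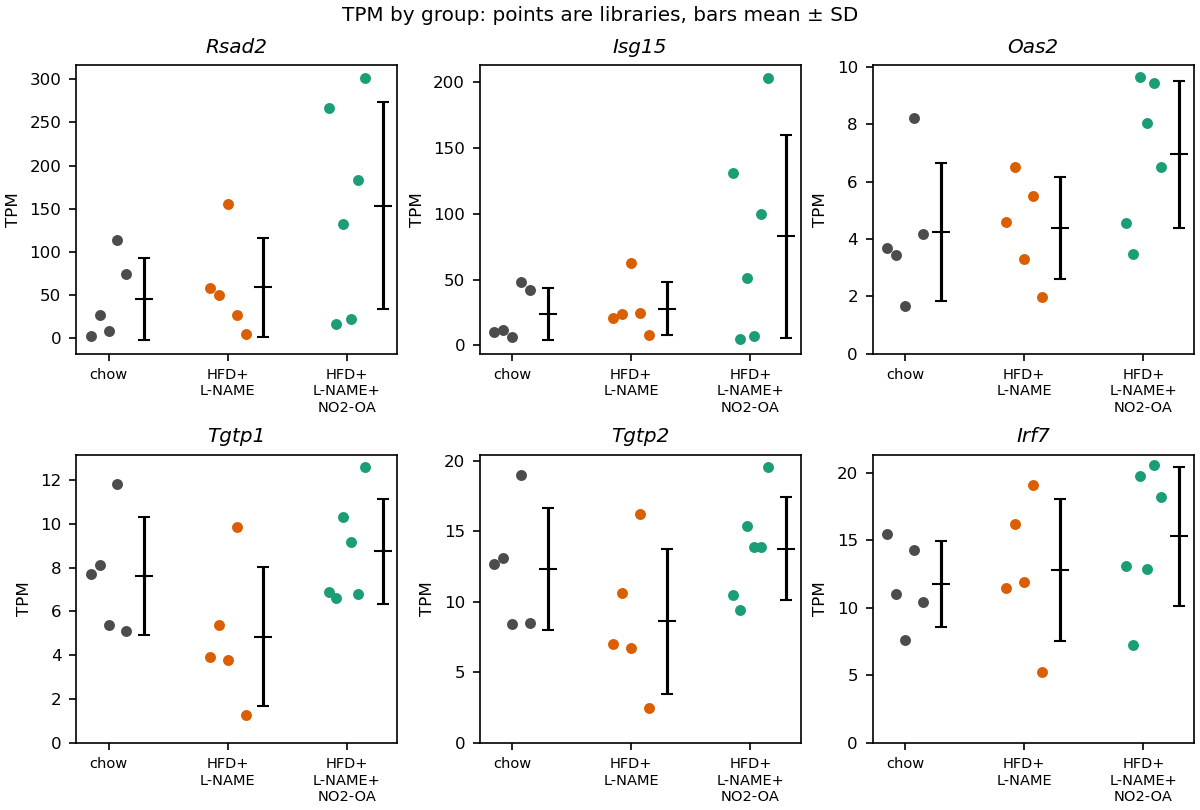
Each point is the TPM of one library, by group (5, 5 and 6 libraries), with the mean and SD of the group as bars, for 6 members. The groups overlap for all 6, Rsad2 in the NO2-OA group ranges from 16.2 to 301 TPM, and HFD + L-NAME 5 is the lowest library of its group for each of these 6 genes.

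The first comparison asks how blood cells of mice on HFD + L-NAME differ from those of mice on chow. No member passed the test: 0 of 38 members had an adjusted p under 0.05 (limma on log2(TPM + 1), Benjamini-Hochberg over all tested genes), beside 0.00611% of all 16365 genes, and the smallest adjusted p of a member was 0.816. At an unadjusted p under 0.05 there were likewise 0 members, beside 0.189% of genes that were higher and 2.74% that were lower. On recovered reads, limma-voom also called 0 members, with 2 (Tgtp1 and Tgtp2) lower before adjustment, or 5.26% against 4.18% of genes. For no member were the groups apart, beside 0% of genes with HFD + L-NAME wholly above and 0.11% wholly below chow. The 5 members of smallest p were 4 GTPases and a sensor, with Tgtp1 at -0.68 ± 0.37 (log2 difference ± SE), Tgtp2 at -0.60 ± 0.38, Gbp2 at -0.46 ± 0.35 and Gbp7 at -0.42 ± 0.34. Zbp1 was at -0.45 ± 0.38. An exact two-sided permutation test of Tgtp1 over the libraries gave p = 0.111, where 0.00794 is the smallest that 5 against 5 libraries allow. Without the 4 libraries with macrophage genes, Tgtp1 stood at -0.20, Tgtp2 at -0.07, Gbp7 at 0.08 and Zbp1 at 0.165. Over all members 10 of 38 lay above 0, or 26.3%, against 17.9% of all genes, with a median of -0.26 against -0.29. Without the 4 libraries with macrophage genes 28 of 38 lay above 0, against 72.9% of all genes, and the members' median turned to 0.18 against 0.13. Without HFD + L-NAME 5 alone 20 of 38 lay above 0, against 32.0% of all genes, and their median turned to 0.02 against -0.12. After median-of-ratios scaling the median of all genes moved to 0.03, 26 of 38 members were above 0 and their median was 0.07. Then 3 members (Oas1a, Mx2 and Irf7) were higher at an unadjusted p under 0.05, or 7.89% against 1.84% of genes, and 0 lower against 2.13%, with a smallest adjusted p of 0.971 by limma.

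The second comparison asks how blood cells differ with and without NO2-OA under the same diet and L-NAME. Again 0 of 38 members passed, beside 0.00611% of genes, and every member had an adjusted p of 1.0 by limma. At an unadjusted p under 0.05, 2 members were higher, or 5.26% against 0.483% of genes, and they were the copies Tgtp1 and Tgtp2. Lower were 0 members against 0.464% of genes. By limma-voom 0 members passed and 5 were higher before adjustment, or 13.2% against 1.23% of genes. The groups were apart for 0 members, beside 0.0183% of genes wholly higher and 0.0183% wholly lower. Tgtp1 differed by 0.88 ± 0.35 (p = 0.0198 before adjustment by limma, 0.0281 by the exact permutation test, where 0.00216 is the smallest possible), with 6 of 6 libraries above the HFD + L-NAME median. Tgtp2 differed by 0.77 ± 0.37 (p = 0.0457 by limma, 0.0628 by the exact permutation test), also with 6 of 6 above that median. Without the libraries with macrophage genes the values were 0.46 and 0.32. The 7 T cell markers summed to 140 to 364 TPM in chow (median 359), 52.3 to 230 TPM in HFD + L-NAME (median 101) and 124 to 245 TPM in the NO2-OA group (median 158), and their part in the Tgtp1 and Tgtp2 values was not tested. Gbp2 (0.52 ± 0.33), Oas2 (0.57 ± 0.35) and Rsad2 (1.36 ± 0.87) came next, and 4 of 6 libraries of Oas2 and of Rsad2 were above the HFD + L-NAME median. Of the 38 members 36 lay above 0, or 94.7% against 64.7% of all genes. Their median was 0.31 against 0.08 for all genes. Without the libraries with macrophage genes 21 of 38 lay above 0, against 29.8% of all genes, with a median of 0.07 against -0.10. Without HFD + L-NAME 5 alone 23 of 38 lay above 0, against 31.3% of all genes, with a median of 0.07 against -0.08. After median-of-ratios scaling 29 of 38 lay above 0 with a median of 0.18 against -0.04, and 7 members had an unadjusted p under 0.05 (18.4% against 1.68% of genes that were higher, with 0 lower against 1.7%), the smallest adjusted p of a member by limma being 0.974. Members share libraries and move together, so these shares are no independent counts.

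The third comparison sets the NO2-OA group against chow, and shares its libraries with the other comparisons. Again 0 of 38 members passed, beside 0% of genes, with a smallest adjusted p of 0.977 by limma. Rsad2 differed most, by 2.01 ± 0.87 (p = 0.0299 before adjustment by limma, 0.121 by the exact permutation test), with 4 of 6 libraries above the chow median. It was the single member with an unadjusted p under 0.05, 2.63% of members against 0.428% of genes that were higher, and 0 members were lower against 2.37%. By limma-voom 0 members passed, with 4 higher (10.5% against 0.975% of genes) and 1 lower (2.63% against 2.2%) before adjustment. The groups were apart for 0 members, beside 0.0122% of genes wholly higher and 0.263% wholly lower. Isg15 differed by 1.22 ± 0.76, Oas2 by 0.65 ± 0.35, Oas3 by 0.53 ± 0.41 and Mx1 by -0.42 ± 0.30. Of 38 members 27 lay above 0, or 71.1% against 17.3% of genes, and 36 lay above the median of all genes, which was -0.20. Without the libraries with macrophage genes 32 of 38 lay above 0, against 51.5% of all genes. Without chow 3 alone 15 of 38 lay above 0, against 10.6% of all genes, and without NO2-OA 5 alone 18 of 38, against 13.9%. After median-of-ratios scaling 35 of 38 lay above 0, and 10 had an unadjusted p under 0.05 (26.3% against 1.9% of genes that were higher, with 0 lower against 1.79%). These were Oas1a, Oas2, Mx2, Irgm1, Irf7, Stat2, Eif2ak2, Ifi204, Rsad2 and Parp14. Oas2 had the smallest p, 0.000359, with a difference of 0.83 ± 0.18 and an adjusted p of 0.734 by limma. With protein-coding TPM as the total, 18 of 38 lay above 0, so the sign of the typical member depended on the scaling, while its position above the typical gene did not among the 4 scalings run (a median 0.28 to 0.35 above that of all genes).

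**Figure D3:**
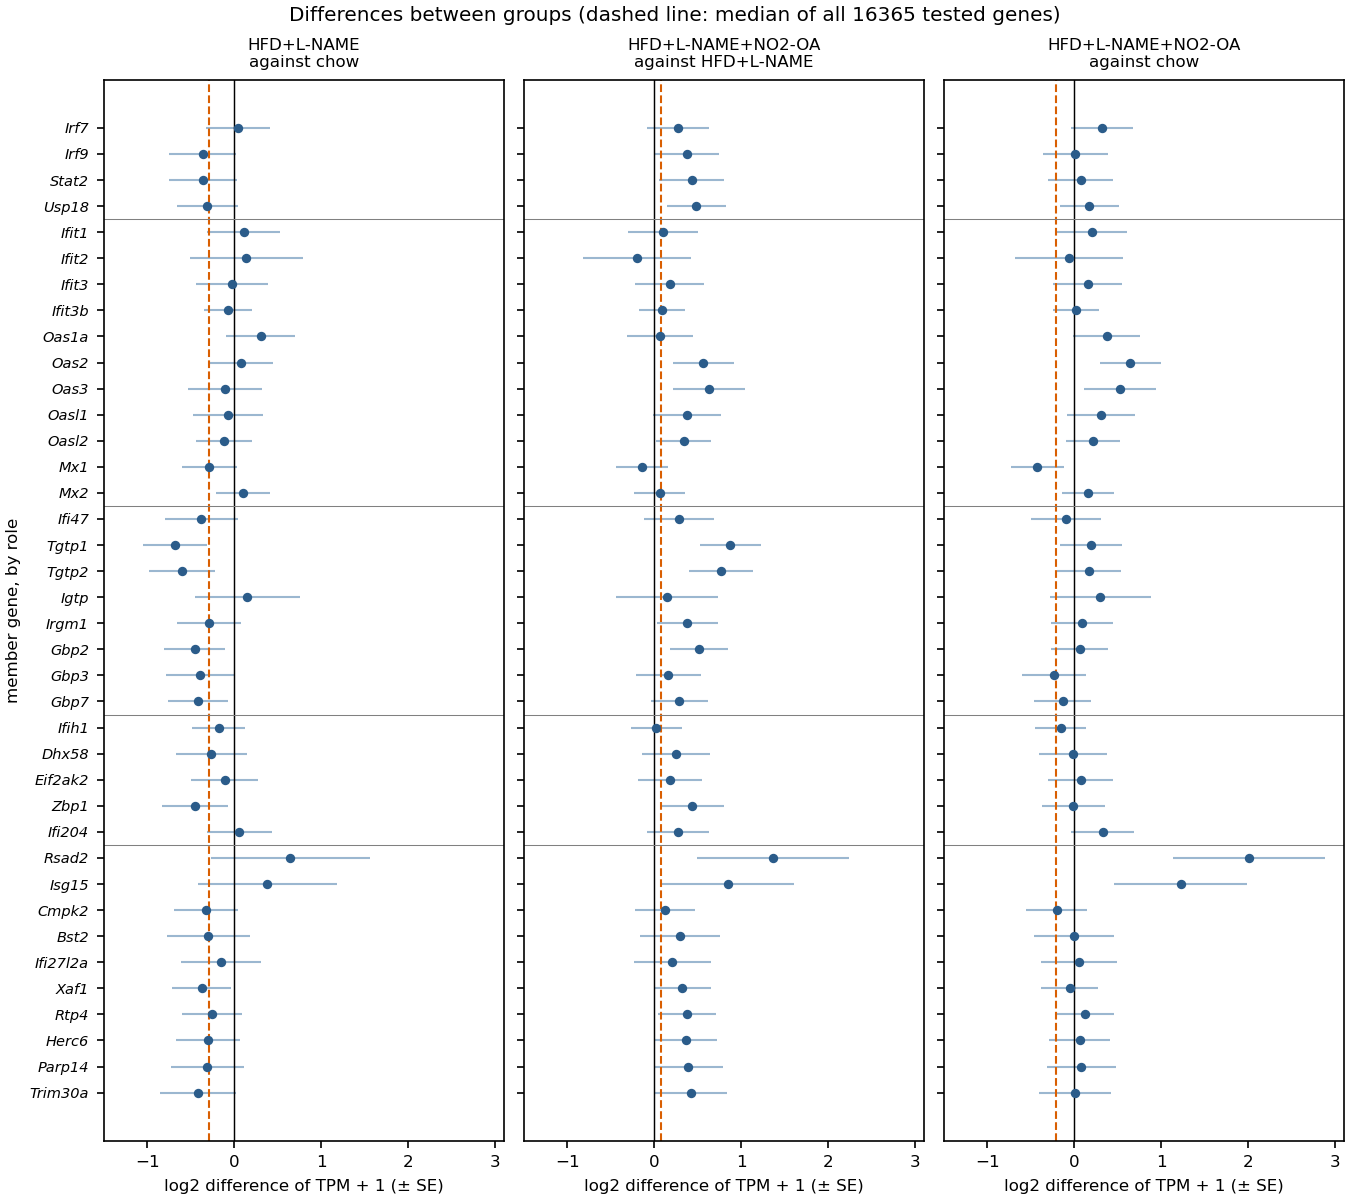
Log2 differences of TPM + 1 with their standard errors (horizontal axis) for the 38 tested members, by role (vertical axis), in the 3 comparisons; the dashed line is the median of all 16365 tested genes. In the NO2-OA group against HFD + L-NAME 36 of 38 points lie above 0 (21 without the 4 libraries with macrophage genes, 23 without HFD + L-NAME 5), Tgtp1 stands at 0.88, and no member passed the test in any panel.

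The Ifit, Oas and Mx members and the interferon-gamma GTPases are set side by side here, and the difference between the lists was not tested. In HFD + L-NAME against chow, 5 of 11 Ifit, Oas and Mx members lay above 0 with a median of -0.02, and 1 of 8 GTPases (Igtp) with a median of -0.405, beside the median of -0.29 over all genes. In the NO2-OA group against HFD + L-NAME, 9 of 11 lay above 0 with a median of 0.10 and 8 of 8 GTPases with a median of 0.34, beside 0.08. In the NO2-OA group against chow, 9 of 11 lay above 0 with a median of 0.21 and 5 of 8 GTPases with a median of 0.08, beside -0.20. Relative to all genes the Ifit, Oas and Mx median was 0.27, 0.02 and 0.41 in these comparisons, and the GTPase median -0.12, 0.25 and 0.28. The distances to all genes kept their signs after median-of-ratios scaling (0.29, 0.01 and 0.37 against -0.08, 0.25 and 0.30). All these medians are smaller than the SD of the library medians within groups, 0.53 for either list. Without the libraries with macrophage genes the GTPase median in HFD + L-NAME against chow was 0.02 and that of the Ifit, Oas and Mx members 0.24. In the NO2-OA group against HFD + L-NAME they were then 0.16 and -0.19, so the latter turned in sign. The medians of all genes in these comparisons were then 0.13 and -0.10, also turned in sign. Without HFD + L-NAME 5 alone the Ifit, Oas and Mx median was 0.25 in HFD + L-NAME against chow. It was -0.09 in the NO2-OA group against HFD + L-NAME, and both had turned in sign. The medians of all genes were then -0.12 and -0.08, of which the latter had turned. The GTPase median in the NO2-OA group against chow turned to -0.07 without chow 3 and fell just under 0 without chow 5 or NO2-OA 5. Over all genes the medians were then -0.35, -0.27 and -0.25. Other genes that interferon-gamma is known to induce, such as Irgm2 and Psmb8, gave medians of -0.35, 0.40 and -0.06 over 16 tested genes, and 48 other interferon-stimulated genes gave -0.35, 0.21 and -0.10. In both lists 0 genes passed in any comparison, beside 0.00611%, 0.00611% and 0% of all genes.

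The levels of Rsad2 and Isg15 went with those of red blood cell genes. The 5 genes of that lineage that were found (Hbb-bt, Hba-a1 and Hba-a2 of haemoglobin, the haem enzyme Alas2 and the anion exchanger Slc4a1) summed to between 778 and 161000 TPM per library, although the cells had been through red cell lysis. The sum ranged from 778 to 42900 TPM in chow (median 12200), from 5640 to 73700 TPM in HFD + L-NAME (median 16900) and from 6530 to 161000 TPM in the NO2-OA group (median 35400). Within groups, Rsad2 rose by 0.89 ± 0.10 log2 units for each log2 unit of this sum (adjusted p = 3.77e-06, limma with group terms over all genes), the 14th smallest p among the genes tested. Isg15 rose by 0.65 ± 0.12 (adjusted p = 0.0036) and Oas3 by 0.31 ± 0.08 (adjusted p = 0.0476). These were 3 of 38 members, or 7.89%, against 0.507% of all genes. With a negative slope there were 0 members against 0.507% of genes. The other 35 members had slopes from -0.03 (Ifih1) to 0.31 (Igtp), and the median of all genes was 0.02. Isg20, a ribonuclease outside the 39 members, had a slope of 0.69 ± 0.10 (adjusted p = 7.6e-05 by limma) and was the 1 of 48 other interferon-stimulated genes tested that rose (2.08%). Cxcl10, a chemokine named after its values were seen, passed in the other direction (-0.30 ± 0.07, adjusted p = 0.0124 by limma), also 1 of 48.

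The slope of Rsad2 passed in all 7 alternative settings and without any single library. Without chow 1 and NO2-OA 1, the libraries with the lowest and the highest sums, it was 1.01 ± 0.14 (adjusted p = 7.79e-05 by limma), and in the 11 libraries of the lower run of library numbers it was 0.91 ± 0.14 (7.96e-05). The slope of Isg15 was 0.86 ± 0.15 without those 2 libraries (adjusted p = 0.00204) and 0.50 ± 0.13 without the 3 libraries of low protein-coding share (adjusted p = 0.139). That of Oas3 did not pass in most settings. Both sides of these slopes share the total that defines TPM. With the sum as a term in the model, the difference of Rsad2 between the NO2-OA group and chow was 0.28 in place of 2.01, and that between the NO2-OA group and HFD + L-NAME 0.69 in place of 1.36. For Isg15 the difference from chow was -0.03 in place of 1.22. The sum itself had medians of 12200 TPM in chow, 16900 TPM in HFD + L-NAME and 35400 TPM in the NO2-OA group. It was chosen as a term after the data were seen, and its part in these differences was not tested. Of 9 marker lists only the erythroid and platelet sums were fitted, so slopes on the other lists are not known. Among red cell markers, Alas2 ranged from 8.66 TPM in chow 1 to 1600 TPM in NO2-OA 1. HFD + L-NAME 1 departed from the trend: its sum of 73700 TPM was the third highest, with Rsad2 at 57.7 and Isg15 at 20.9 TPM.

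Ifit2 and Igtp went with platelet genes. The platelet markers Ppbp, Pf4, Itga2b, Gp9 and Gp1bb summed to between 303 TPM (NO2-OA 2) and 30200 TPM (HFD + L-NAME 3). Ifit2 rose by 0.68 ± 0.09 log2 units per log2 unit of that sum (adjusted p = 2.11e-06 by limma) and Igtp by 0.61 ± 0.08 (adjusted p = 3.41e-06 by limma). Their p-values were the 349th and 369th smallest among the genes tested. Ifit1, which binds RNA without the host cap, rose by 0.38 ± 0.08 (adjusted p = 0.000763 by limma). With Rsad2 (0.73 ± 0.18), Isg15 (0.58 ± 0.16), Ifit3 and Cmpk2, 7 of 38 members (18.4%) passed, against 9.27% of all genes. A negative slope was called for 0 members against 1.17% of genes. After median-of-ratios scaling the share with a positive slope was 21.1% of members against 13.4% of genes. In 4 other settings the share of members was near that of all genes: it was 7.89% against 7.7% with both sums in 1 model, 7.89% against 6.73% without the libraries with macrophage genes, 5.26% against 5.72% without the 3 libraries of low protein-coding share, and 5.26% against 5.02% without the 2 libraries of extreme sums. With both sums in 1 model, Ifit2 (0.71 ± 0.10), Igtp (0.58 ± 0.10) and Ifit1 (0.39 ± 0.09) passed on platelets and Rsad2 (0.75 ± 0.10) on red cells, while Isg15 had adjusted p = 0.11 on red cells by limma. Ifit2 and Igtp passed in all 7 settings, with slopes of 0.76 ± 0.15 and 0.73 ± 0.13 without the 2 libraries of extreme sums. Ifit1 did not pass there (adjusted p = 0.106 by limma). Other GTPases had smaller slopes that did not pass: Tgtp1 had 0.06 ± 0.09 and Irgm1 0.11 ± 0.09 on platelets. Of the 48 other interferon-stimulated genes 3 rose with platelet genes, or 6.25%, below the 9.27% of all genes. They were Lgals3bp (0.67 ± 0.08), Isg20 (0.60 ± 0.14) and the membrane protein Ifitm3 (0.39 ± 0.08), and Cxcl10 passed in the other direction (-0.33 ± 0.07). Of 16 other genes induced by interferon-gamma 2 rose (Gvin1 and Irgm2, 12.5%), and of 17 receptor and signalling genes 1 (Jak2, 5.88%).

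**Figure D4:**
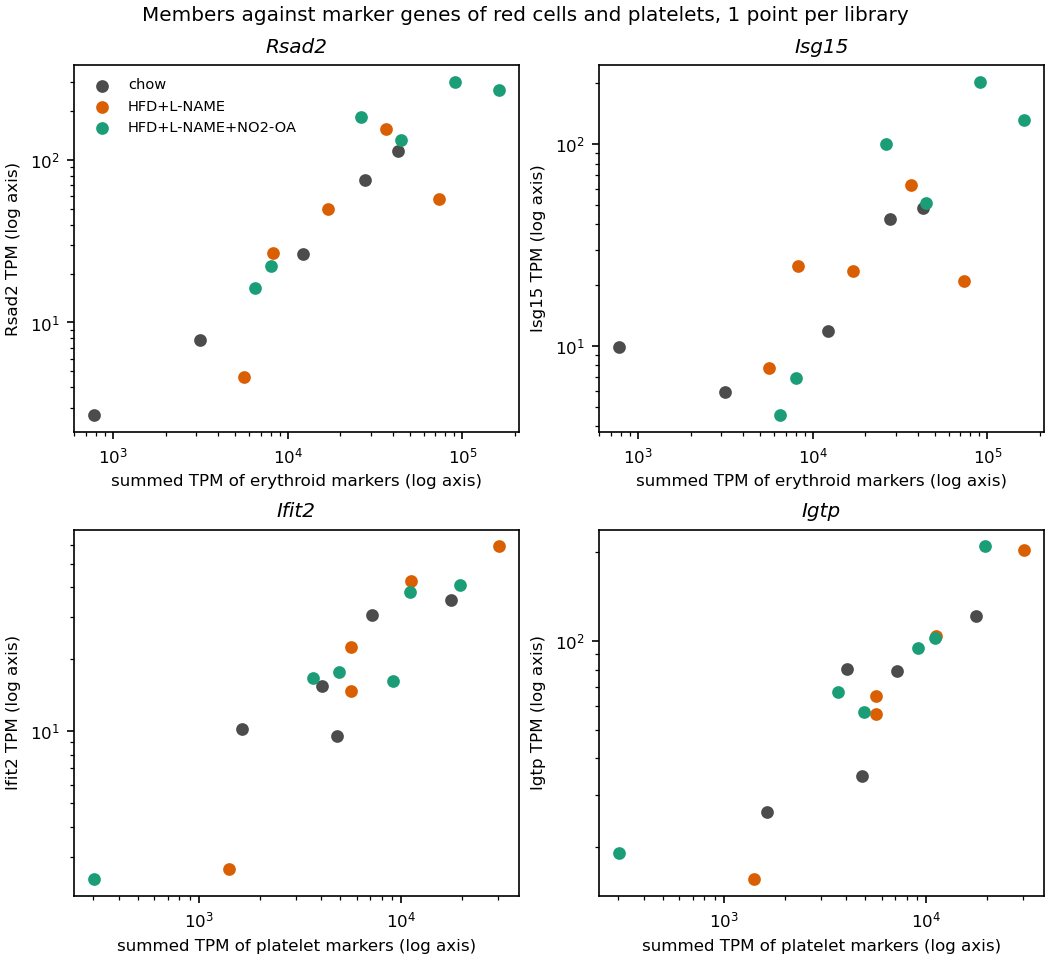
TPM of 4 members (vertical, log axis) against the summed TPM of marker genes (horizontal, log axis), Rsad2 and Isg15 against erythroid and Ifit2 and Igtp against platelet markers; each point is 1 of 16 libraries, coloured by group. The slopes within groups, fitted in common to the 3 groups, are 0.89, 0.65, 0.68 and 0.61 log2 units per log2 unit. Whether slopes differ between groups was not tested.

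**Figure D5:**
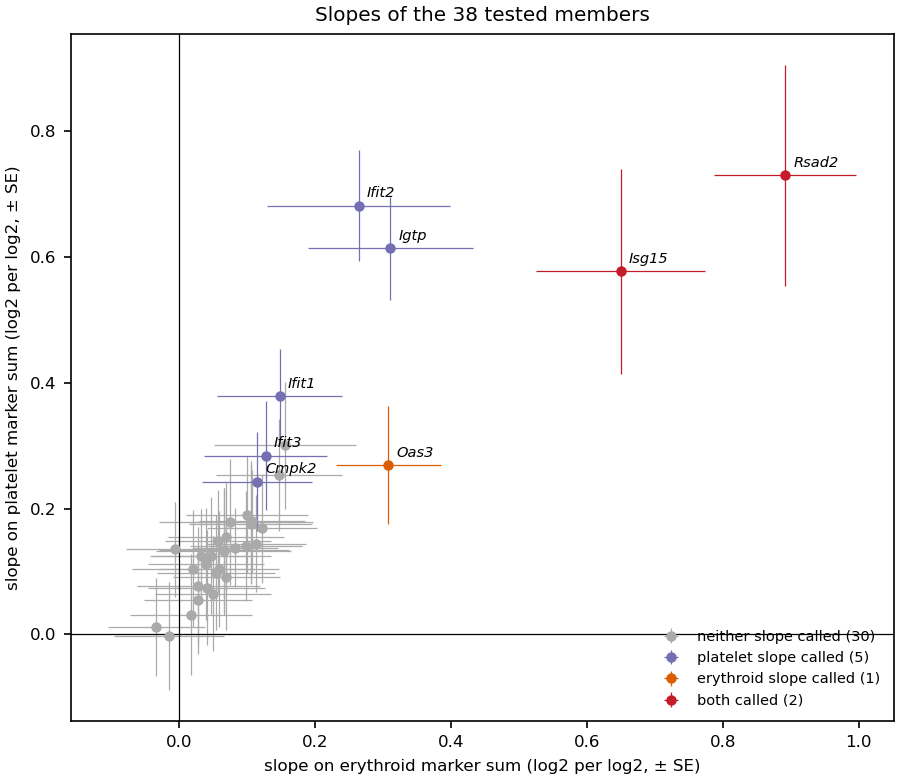
Slope of each of the 38 tested members on the erythroid (horizontal) and the platelet (vertical) marker sum, in log2 units per log2 unit with standard errors, from separate models with group terms. Rsad2 (0.89 and 0.73) and Isg15 (0.65 and 0.58) passed on both, 5 members passed on platelets alone, Oas3 on red cells alone, and the others on neither.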

How the data were processed

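PBMCs from EDTA blood were isolated over Ficoll with red cell lysis, frozen and thawed, and their total RNA was sequenced after random priming and depletion, per the labels' protocols. The submitters' processing notes name bcl2fastq, Trim Galore, HISAT2 and featureCounts and the builds mm39 and hg38. How strand and multiply mapped reads were treated is not given in the sources used here. The deposited values are TPM by the authors, for 51179 identifiers of which 29564 carry a symbol, and all 39 members were matched by symbol.

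Group means of log2(TPM + 1) over the 16 libraries together were compared two-sided by limma (3.58.1, under R 4.3.3, variance trend on), for the 16365 genes that reached 1 TPM in 5 or more of them. A call is a Benjamini-Hochberg adjusted p under 0.05 over all these genes. Fold changes on this scale understate those of low genes. Slopes came from the same model with log2 of a summed marker TPM + 1 added, which was chosen after the data were seen. Of 9 marker lists, the erythroid and platelet lists alone were fitted, and p-values are not adjusted for that choice. Another 13 settings were planned, besides leaving out each library. Members, lists and tests were chosen with earlier results of these data known. Any member may be named, with library values for up to 5 per role by mean TPM and for the 5 of smallest p in each comparison.

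Reads were recovered for 29359 of 32629 genes above 0 from TPM steps, and for 3084 from annotated length. Lengths implied by these steps were within 1.5-fold of the annotated ones for 92.9% of genes. The procedures were tested on simulated data. For limma, noise was drawn separately for each gene, without shifts shared by a library. Planted differences were larger than most member differences here, so recovery of small differences was not tested. Of 15 pairs of libraries with one replicate number, 3 had deviations correlated above 0.1 (range -0.51 to 0.51), so no pairing was used. Promoters are from RefSeq on GRCm38.p6, another build than that named for the reads, and exon overlaps from GENCODE M21, in which 14 members share exon bases with another gene. Tables were handled with Python 3.11.15.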

Additional observations from a re-analysis of the deposited data

Results flagged for a closer look

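Of 117 groups of libraries tested for a value far from the rest (39 members in 3 groups), 2 stood out, where chance would give about 5.8. Ifit2 was at 2.41 TPM in NO2-OA 2, and the next lowest library of that group was at 16.3 TPM. The same library had the lowest platelet marker sum, 303 TPM, and a low protein-coding share of TPM. Oas3 was at 1.40 TPM in HFD + L-NAME 5, and the next lowest library of that group was at 4.91 TPM. HFD + L-NAME 5 had the fewest recovered reads, 4590773, and was the lowest library for 25 of 39 members. The part of these measures in the 2 low values was not tested.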

How the results depend on the processing

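No member was called in any comparison under the planned or added settings or without any single library. Over all genes, 1, 1 and 0 were called in 3 comparisons (HFD + L-NAME with chow, then the NO2-OA group with HFD + L-NAME and with chow), and 0 to 2, 0 to 4 and 0 to 1 without single libraries. The first count was 0 with no filter, both scalings, voom, or without the 3 libraries of low protein-coding share. It was 2 in the lower run of library numbers alone or without the 4 macrophage libraries, which keep the same chow and HFD + L-NAME libraries. The second was 0 with both scalings, voom, or without the 3 low libraries, 2 with a pseudocount of 0.1, with the run of library numbers as covariate or without the macrophage libraries, and 3 in the lower run alone. The third was 1 in the lower run alone. List medians moved by less than the SD of library medians within groups, but several turned in sign: in HFD + L-NAME against chow the all-member median ran from -0.42 (without chow 3) to 0.02 (without HFD + L-NAME 5), and in the NO2-OA group against chow from -0.12 (without chow 3) to 0.26 (without NO2-OA 2). Of 114 member differences, 72 kept their sign without the macrophage libraries, 91 (without HFD + L-NAME 5) to 113 without single libraries, and 39 of 39 where a mean of 10 TPM was asked.

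Replicate numbers did not pair the libraries. With the replicate block, 111 of 114 signs held, the counts of genes called were 1, 1 and 0 with 0 members, and the GTPase medians were -0.405, 0.28 and 0.05.

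In HFD + L-NAME against chow, 28 of 38 members lay above 0 without the macrophage libraries, in place of 10. Among the 5 members of smallest p, signs turned for Gbp7 (0.0794) and Zbp1 (0.165) in the lower run alone and without the macrophage libraries. For this comparison both settings keep the same libraries, chow 3, 4 and 5 and HFD + L-NAME 2, 3 and 4, so they are no separate checks. With the erythroid sum as covariate Isg15 was at -0.39 and Rsad2 at -0.41, and with both sums at -0.35 and -0.37. Without single libraries Rsad2 ranged from -0.0281 (without chow 1) to 1.33 (without HFD + L-NAME 5). In the NO2-OA group against chow, Isg15 was at -0.032 and Oas3 at -0.0679 with the erythroid sum. The erythroid slope count of 3 members was 1 with both sums, protein-coding totals or without the 3 low libraries, and 2 to 3 without single libraries. The platelet count of 7 was 3 (7.89%) with both sums, protein-coding totals or without the macrophage libraries, where 7.7%, 5.61% and 6.73% of all genes passed. With protein-coding totals 1 member (2.63%) also had a negative slope, against 19.1% of genes. The count was 2 (5.26%) in the lower run alone (4.12% of genes), without the 3 low libraries or without the 2 libraries of extreme sums. Without single libraries it was 4 (without HFD + L-NAME 5 or NO2-OA 2) to 9. The causes were not tested.

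Values of a few TPM rest on few reads in the shallowest library, labels do not show separate animals, and no more than 6 libraries stand in a group.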
